A study of Mus musculus with 12 samples.

Results

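The genes described here are 10 genes of de novo lipogenesis, the making of fatty acids from acetyl-CoA: Srebf1, Acly, Acaca, Acacb, Fasn, Scd1, Elovl5, Elovl6, Me1 and Thrsp. They were taken by name, as the non-control probes of the array files whose gene name equalled one of the 10 symbols. That rule found 9 of the 10 genes with 16 probes. Me1 is listed in the array files under its older symbol Mod1 and was named here through its RefSeq accession, which added 2 probes. The array holds 27768 genes and unnamed probes, of which 18699 were tested, and all 10 lipogenesis genes were among those tested.

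Liver RNA was hybridised to one-colour Agilent arrays, 1 mouse to an array, from 12 male mice of the strain C57BL/6 at 8 to 10 weeks of age. All 12 mice had been adrenalectomized, so that the controls as well as the treated animals lacked their own adrenal glucocorticoids. The 4 groups of 3 mice were untreated wild-type, wild-type given dexamethasone, untreated HESKOL and HESKOL given dexamethasone. Dexamethasone, a synthetic glucocorticoid, was given into the peritoneum at 1 mg/kg, and the liver was taken after 6 h. A vehicle injection of the untreated mice is not described in the labels. The labels do not spell out HESKOL, nor do they give the deleted part or the cells that carry the deletion; they call these animals a knockout, and the title of the series names Hes1, a transcriptional repressor of the Notch pathway.

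De novo lipogenesis turns surplus carbohydrate into fat, and the liver is one of its main sites. Srebf1 encodes SREBP-1, a membrane-bound transcription factor that insulin induces and that switches on most of the enzymes of the pathway. Citrate leaves the mitochondrion and is cleaved to acetyl-CoA by Acly, acetyl-CoA is carboxylated to malonyl-CoA by the acetyl-CoA carboxylases Acaca and Acacb, and Fasn, fatty acid synthase, builds palmitate with NADPH that Me1 helps to supply. Elovl6 and Elovl5 then lengthen the chains and Scd1 introduces a double bond.

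Levels are given as the log2 of the background-corrected signal minus the 75th percentile of the same array, so that a difference of 1 is a doubling and a value below 0 is not an absence of signal. All 10 genes were well above background on all 12 arrays by the probe that stood for them, and none of their probes was saturated or marked as an outlier. Arrays had a 75th percentile of 897 to 1614 units, with 61.5 to 71.9% of probes well above background. The 9 hepatocyte markers on the array, albumin and Hnf4a among them, were above background on every array. Hes1 itself was among the genes tested and lay below the 75th percentile on every array. Its levels were -1.49, -1.22 and -1.90 in untreated wild-type liver and -2.46, -2.40 and -3.09 in untreated HESKOL liver. Those groups did not overlap, but the difference of -1.12 had an adjusted p of 1.00 (limma). After dexamethasone HESKOL liver was again below wild-type liver without overlap, as for 7.67% of all genes tested. That difference of -1.10 had an adjusted p of 0.25 (limma). The genotype label was therefore not checked by a called change. Mice of a group are separate animals, and in RNA from whole liver fewer cells of a type and less RNA per cell cannot be told apart.

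The arrays lay on 3 slides of 4, and the slides followed the groups in part. Slide 1 carried all wild-type livers without treatment plus untreated HESKOL replicate 1, slide 2 held untreated HESKOL replicates 2 and 3 with treated wild-type replicates 1 and 2, and slide 3 held treated wild-type replicate 3 with all 3 treated HESKOL livers. Within a genotype, treated and untreated livers never shared a slide. Treated wild-type replicate 1 stood farthest from its group mates over all genes tested, with a root mean square deviation of 0.99 against 0.46 to 0.80 for the other arrays. On the first principal component, the main axis of variation over all genes tested (38.4%), this replicate was at -35.8. The untreated livers were at -74.0 to -7.97 and the other treated livers at 29.7 to 86.2, so it lay among the untreated ones. The cause was not tested. Calls and values that the slide or single arrays moved are given below with the slide as a block, within slide 3, or with an array left out.

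With dexamethasone 5 of the 10 lipogenesis genes were lower in HESKOL liver and none in wild-type liver, and for no single gene did the difference between those 2 effects pass the test. All 5 calls were lost when the slide was fitted as a fixed block, a fit that called 0 of all genes for dexamethasone in HESKOL liver. The median change of the 10 genes in HESKOL liver went from -1.63 to -0.81 with the block. For this comparison the block rests on treated wild-type replicate 3 on slide 3 against replicates 1 and 2 on slide 2. In HESKOL liver the master regulator Srebf1 fell by 4.06 on the log2 scale, the elongase Elovl6 by 2.12, Fasn by 1.88, Acly by 1.86 and Acaca by 1.75. Acacb, Scd1, Elovl5, Me1 and Thrsp did not pass the test. Over all genes tested, 4.2% were called lower and 3.64% higher in this comparison at an adjusted p under 0.05 in limma. Without untreated HESKOL replicate 1 or 2, or without treated HESKOL replicate 2, only Srebf1 and Elovl6 of the 5 passed, and without treated HESKOL replicate 3, 3 passed. The median over all genes was -0.0025. In wild-type liver limma called 0 of the 10 genes, and 0.198% of all genes were called in either direction. At an unadjusted p under 0.05, 0 of the 10 passed, beside 2201 of all 18699 genes. The median of the 10 genes was -0.25 there, beside -0.020 over all genes, and its sign was not stable: it was -0.52 without untreated wild-type replicate 3, 0.016 without untreated wild-type replicate 1, 0.039 with the slide as a fixed block and -0.58 in the deposited table.

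**Figure D1:**
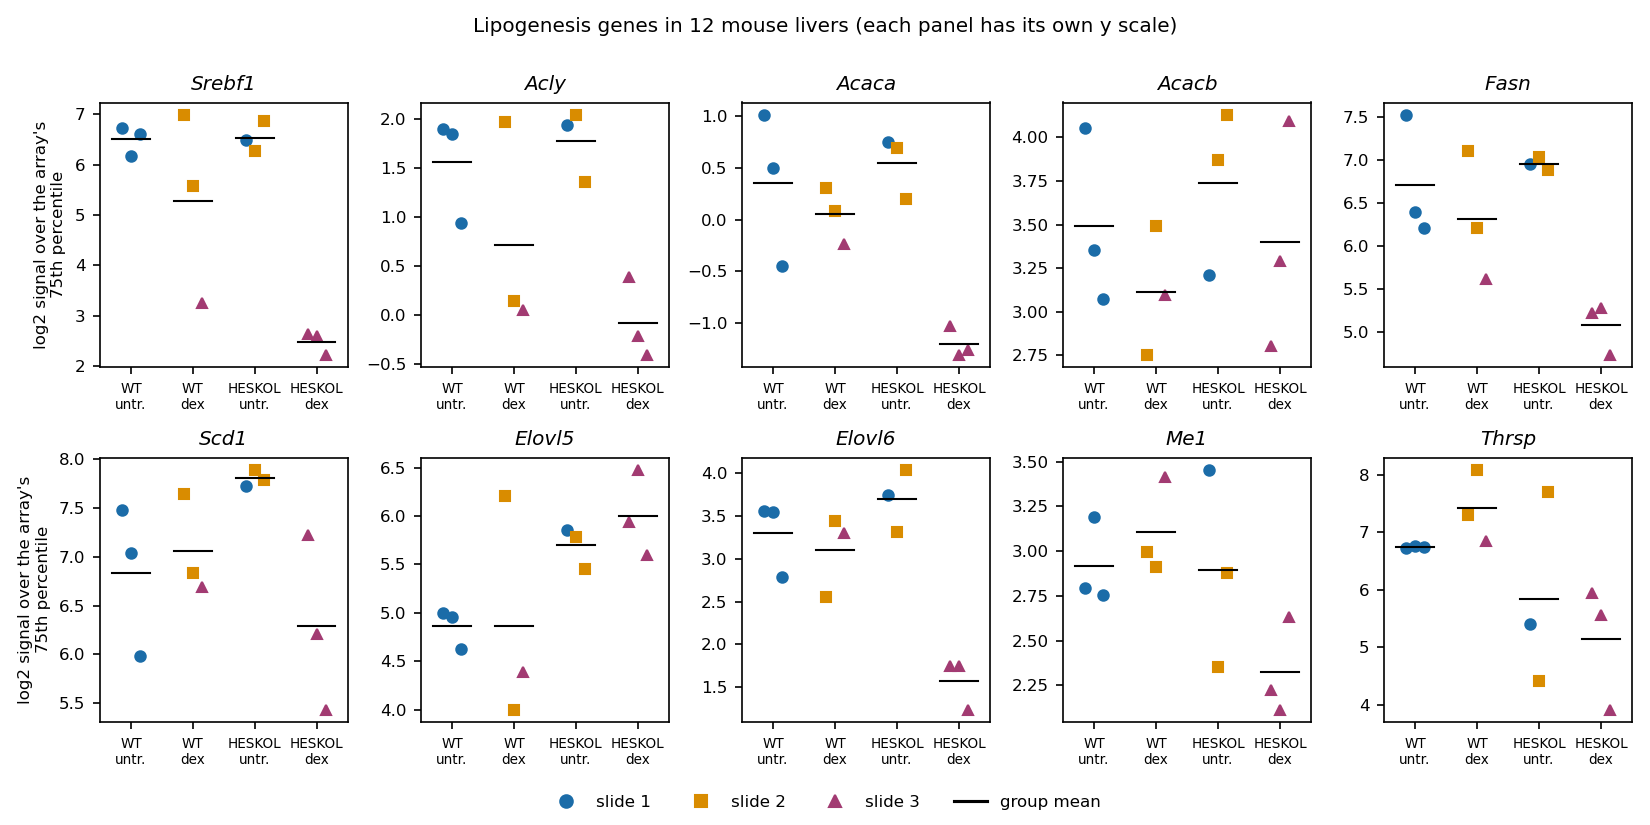
Log2 signal over the 75th percentile of its array (y axis, own scale in each panel) of the 10 lipogenesis genes in the 4 groups of 3 livers (x axis). Each point is 1 mouse, its shape and colour give the slide, and black lines are group means. Srebf1 sat between 6.17 and 6.86 in the 6 untreated livers, at 2.22 to 2.63 in treated HESKOL liver, and spread from 3.25 to 6.99 in treated wild-type liver.

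Srebf1 had the widest range of the set. Its level was 6.73, 6.17 and 6.60 in untreated wild-type liver and 6.48, 6.27 and 6.86 in untreated HESKOL liver, so the untreated genotypes overlapped. After dexamethasone the 3 HESKOL livers were at 2.63, 2.59 and 2.22, all far below every untreated liver. The treated wild-type livers were at 6.99, 5.57 and 3.25: one above every untreated wild-type liver, one below them and one close to the treated HESKOL livers. The change was -4.06 with a standard error of 0.69 in HESKOL liver (adjusted p = 0.0086, limma, n = 3 and 3), a 16.6-fold lower signal, and -1.23 with the same standard error in wild-type liver (adjusted p = 0.53). With the slide as a fixed block it was -1.05 in HESKOL liver (adjusted p = 0.86) and -0.31 in wild-type liver. Srebf1 was measured by 1 probe, at chr11:60281270-60281329 on the minus strand of the mm7 design, so its isoforms were not told apart here.

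Of the enzymes that lead from citrate to palmitate, Acly, Fasn and Acaca had the same order of group means as Srebf1, over a smaller range. Acly, ATP citrate lyase, was at 1.94, 2.04 and 1.35 in untreated HESKOL liver and at 0.38, -0.22 and -0.41 after dexamethasone, with no overlap. In wild-type liver it was at 1.89, 1.85 and 0.94 without and 1.97, 0.14 and 0.04 with dexamethasone, so replicate 1 remained at the untreated level while the other two were near the treated HESKOL livers. The change of Acly was -1.86 with a standard error of 0.49 in HESKOL liver (adjusted p = 0.042, limma) and -0.84 in wild-type liver (adjusted p = 0.54). With the slide as a fixed block the change in HESKOL liver was -0.77 (adjusted p = 0.90).

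Fasn was at 6.96, 7.04 and 6.88 in untreated HESKOL liver, the tightest group of the 4, and at 5.22, 5.28 and 4.74 after dexamethasone. In wild-type liver it was at 7.53, 6.39 and 6.22 without and 7.10, 6.21 and 5.62 with treatment, and those groups overlapped. The change was -1.88 with a standard error of 0.40 in HESKOL liver (adjusted p = 0.021, limma) and -0.40 in wild-type liver (adjusted p = 0.75). With the slide as a fixed block the change in HESKOL liver was -0.84 (adjusted p = 0.88). The second Fasn probe gave a larger change in HESKOL liver, -3.11, and -1.02 in wild-type liver.

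Acaca and Acacb encode the 2 acetyl-CoA carboxylases, the cytosolic form that feeds fatty acid synthesis and the mitochondrial form whose malonyl-CoA restrains fatty acid oxidation. Acaca was at 0.75, 0.70 and 0.20 in untreated HESKOL liver and at -1.03, -1.31 and -1.26 after dexamethasone, a change of -1.75 with a standard error of 0.34 (adjusted p = 0.014, limma) that became -1.22 (adjusted p = 0.83) with the slide as a fixed block. In wild-type liver it was at 1.02, 0.50 and -0.45 without and 0.31, 0.08 and -0.23 with dexamethasone, a change of -0.31 (adjusted p = 0.78). Acacb showed no such pattern. It was at 3.21, 3.87 and 4.13 in untreated and 2.81, 3.29 and 4.10 in treated HESKOL liver, the groups overlapped, and the change of -0.34 had a 95% confidence interval from -1.19 to 0.51. Its change in wild-type liver was -0.38, with an interval from -1.23 to 0.47.

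The 4 Acaca probes did not give the same size of change. The brightest of them, which stood for the gene, lies within a single stretch of 60 bases at chr11:84470765-84470824. The other 3 cross introns of the mm7 design, so each reads spliced transcript, and they are shown here because the size of the Acaca result depends on which is read.
A_51_P439426: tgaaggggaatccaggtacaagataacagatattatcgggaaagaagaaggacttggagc
A_52_P23177: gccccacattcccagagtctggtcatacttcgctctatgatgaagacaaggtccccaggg
A_52_P595124: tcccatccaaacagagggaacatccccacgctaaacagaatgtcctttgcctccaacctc
The first of these, at chr11:84411918-84415918, changed by -1.63 in HESKOL liver. The second, at chr11:84363852-84364855, changed by -0.86, and the third, at chr11:84350405-84362820, by -0.78 with an adjusted p of 0.0825 in a limma fit of every probe on its own. All 4 changes were negative in HESKOL liver, and in wild-type liver they ran from -0.53 to 0.10. The mean of all Acaca probes changed by -1.25.

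The genes that modify palmitate divided. Elovl6, which extends palmitate to stearate, was at 3.74, 3.31 and 4.03 in untreated HESKOL liver and at 1.75, 1.74 and 1.24 after dexamethasone. In wild-type liver it was at 3.56, 3.54 and 2.79 without and 2.55, 3.44 and 3.30 with treatment, so all 3 treated HESKOL livers lay below the other 9 livers. The change was -2.12 with a standard error of 0.32 in HESKOL liver (adjusted p = 0.0047, limma) and -0.20 in wild-type liver (adjusted p = 0.86).

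Scd1, stearoyl-CoA desaturase, was at 7.73, 7.89 and 7.79 in untreated HESKOL liver and at 7.23, 6.21 and 5.43 after dexamethasone. These groups did not overlap, but the treated mice were spread over 1.80, and the change of -1.51 had an adjusted p of 0.0749 (limma). Without treated HESKOL replicate 1 the change was -1.98 with an adjusted p of 0.039. Elovl5, an elongase of polyunsaturated fatty acids, did not join the others. It was at 5.86, 5.78 and 5.46 in untreated and 5.93, 6.48 and 5.60 in treated HESKOL liver, a change of 0.31 with an interval from -0.74 to 1.35, and its second probe gave 0.28.

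Me1, malic enzyme, and Thrsp, the Spot 14 protein that is induced by thyroid hormone and carbohydrate in liver, overlapped between treated and untreated HESKOL liver. Me1 was at 3.46, 2.35 and 2.88 in untreated and 2.22, 2.11 and 2.63 in treated HESKOL liver, and its 2 probes gave changes of -0.57 and -0.69, with an adjusted p of 0.25 for the first (limma). Thrsp was at 5.40, 4.40 and 7.70 in untreated and 5.94, 5.56 and 3.91 in treated HESKOL liver. In wild-type liver it was at 6.73, 6.76 and 6.75 without and 7.31, 8.09 and 6.86 with dexamethasone. Its change was -0.70 in HESKOL and 0.67 in wild-type liver, with intervals from -2.34 to 0.94 and from -0.96 to 2.31.

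Counted by whether the groups overlapped, the treated HESKOL livers were all below the untreated ones for 6 of the 10 genes, the 5 called genes and Scd1, where 18.7% of all genes tested showed such a separation downward. In wild-type liver Thrsp alone was separated, upward, as were 6.11% of all genes tested.

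**Figure D2:**
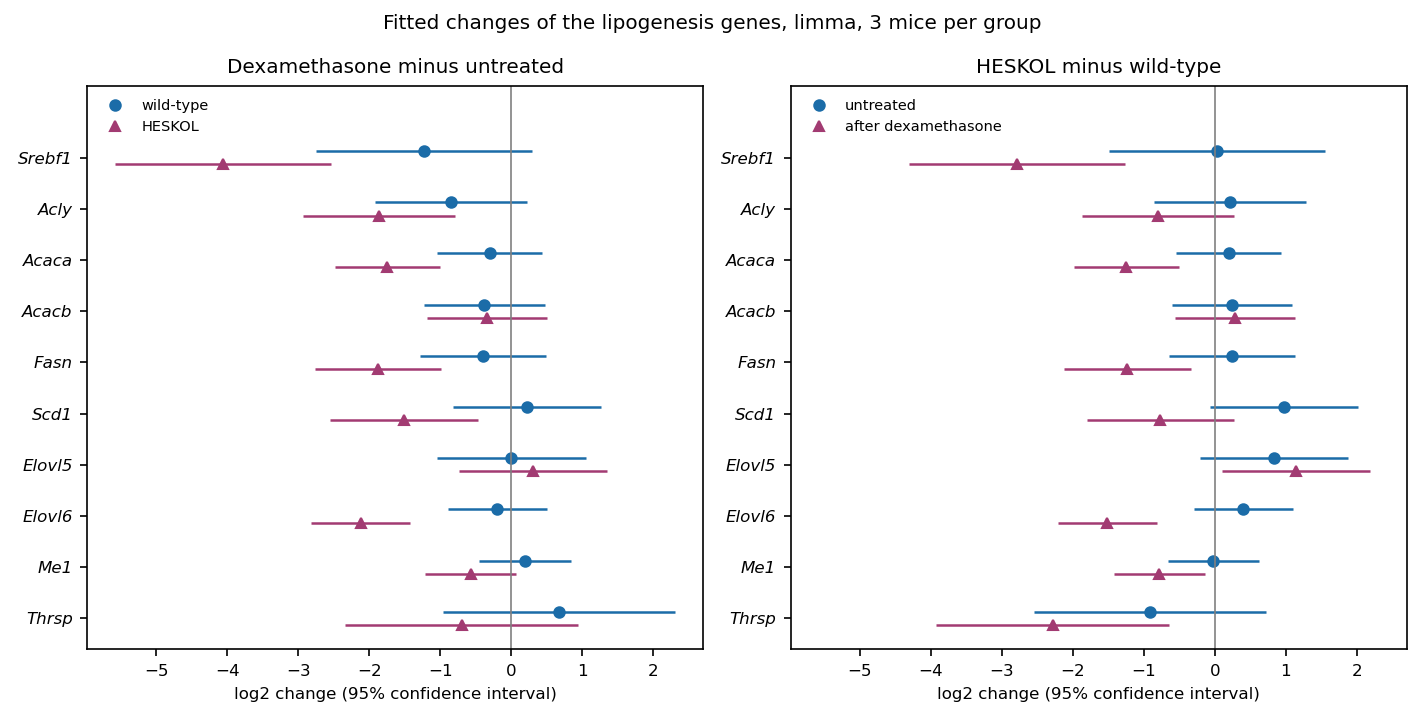
Log2 changes fitted with limma (x axis, points, with 95% confidence intervals as lines) for the 10 lipogenesis genes (y axis); the left panel gives dexamethasone minus untreated in wild-type and HESKOL liver and the right panel HESKOL minus wild-type without and after dexamethasone. The intervals of Srebf1, Acly, Acaca, Fasn, Scd1 and Elovl6 lie below 0 in HESKOL liver, and none of the 10 does so in wild-type liver.

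The changes in the 2 genotypes were then set against each other. The difference between the dexamethasone effects, HESKOL minus wild-type, was -2.82 for Srebf1, -1.92 for Elovl6, -1.74 for Scd1, -1.48 for Fasn, -1.44 for Acaca and -1.02 for Acly. No member passed this test at the threshold in limma, and 0.016% of all genes were called. Of the 10 genes, 5 had an unadjusted p under 0.05, beside 1243 of all 18699 genes. The smallest adjusted p was 0.34, for Elovl6. The median difference over the 10 genes was -1.41, beside 0.00077 over all genes. A larger response in HESKOL than in wild-type liver was therefore not called for any single gene of the set.

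Without treatment no gene of the set passed the test between genotypes. Limma called 0 of the 10 genes and 0% of all genes. An unadjusted p under 0.05 was reached by 0 of the 10, beside 297 of all 18699 genes. The median difference, HESKOL minus wild-type, was 0.23 over the 10 genes, beside 0.044 over all genes; it was 0.52 without untreated wild-type replicate 1 and 0.016 without replicate 3. Scd1 and Elovl5 were higher in all 3 untreated HESKOL livers than in the 3 wild-type livers, by 0.97 and 0.84, while 4.16% of all genes were separated upward. Scd1 was at 7.48, 7.04 and 5.99 and Elovl5 at 5.0, 4.96 and 4.63 in untreated wild-type liver. On slide 1, which held untreated livers of both genotypes, the single HESKOL liver differed from the mean of the 3 wild-type livers by 0.90 for Scd1, 1.00 for Elovl5, 0.54 for Me1 and -0.02 for Srebf1. The widest such difference was that of Thrsp, -1.35, beside -0.91 over all untreated livers.

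After dexamethasone the 2 genotypes differed in Elovl6, which was -1.52 in HESKOL relative to wild-type liver on the log2 scale, with a standard error of 0.32 (adjusted p = 0.0496, limma), and it was the only member called. That p lies at the threshold, and the call was lost in all but one of the 12 fits that left out 1 array; it was kept without treated wild-type replicate 1, at -1.79. Over all genes 0.444% were called lower and 0.695% higher. The median of the 10 genes was -1.01, beside 0.038 over all genes. Of the 10, 7 had an unadjusted p under 0.05, beside 2940 of all 18699 genes. The treated HESKOL livers lay below all 3 treated wild-type livers for Srebf1, Fasn, Acaca, Elovl6, Me1 and Thrsp, 6 of 10, while 7.67% of all genes were separated downward. The differences that did not pass were -2.79 for Srebf1 (adjusted p = 0.0815), -2.28 for Thrsp (0.17), -1.25 for Acaca (0.10), -1.23 for Fasn (0.17), -0.80 for Acly (0.46), -0.78 for Me1 (0.23) and -0.77 for Scd1 (0.47). Acacb and Elovl5 had positive differences that did not pass either. Acacb was 0.28 higher in treated HESKOL liver (adjusted p = 0.78). Elovl5 was at 6.21, 4.0 and 4.39 in treated wild-type liver and 1.14 higher in treated HESKOL liver (adjusted p = 0.28). The comparisons share groups: the treated HESKOL livers enter both this one and the effect of dexamethasone in HESKOL liver.

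Single wild-type arrays moved these values. Without treated wild-type replicate 3, the wild-type liver that shared slide 3 with the treated HESKOL livers, the genotype difference of Srebf1 after dexamethasone was -3.80 (adjusted p = 0.0033, limma). Without treated wild-type replicate 1 it was -1.93. Without that same replicate 1, Acly was called lower by dexamethasone in wild-type liver, at -1.47 (adjusted p = 0.040), Srebf1 changed there by -2.09 (adjusted p = 0.0501; -0.22 without replicate 3), and Elovl5 was called higher in HESKOL than in wild-type liver after dexamethasone, by 1.81 (adjusted p = 0.016). For Acly, leaving out replicate 1 took the genotype difference after dexamethasone from -0.80 to -0.17 and the difference between the dexamethasone effects from -1.02 to -0.39.

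Within slide 3 the 3 treated HESKOL livers could be set against 1 treated wild-type liver. There Elovl6 was at 3.30 in the wild-type and 1.24 to 1.75 in the HESKOL livers, a difference of -1.72, beside -1.52 over all treated livers. Thrsp differed by -1.72, Me1 by -1.09 and Acaca by -0.96, each with the wild-type liver above all 3 HESKOL livers. Srebf1 differed by only -0.77 within the slide, against -2.79 over all treated livers, since the wild-type liver on slide 3 differed by -3.03 from the mean of the other treated wild-type livers, both on slide 2. Fasn differed by -0.54, Scd1 by -0.40 and Acly by -0.13, while Elovl5 was 1.61 higher in the HESKOL livers. The fit with the slide as a fixed block gives these same differences and tests them: limma called 0 of the 10 genes and 3 of all genes. An unadjusted p under 0.05 was reached by 3 of the 10 and by 1955 of all 18699 genes. The smallest adjusted p among the 10 was 0.26, for Elovl6.

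With the slide fitted as a fixed block, 0 of the 10 genes were called lower by dexamethasone in HESKOL liver and 1 had an unadjusted p under 0.05; limma called 0 of all genes in that fit, with 1198 at an unadjusted p under 0.05. The fit then had 6 residual degrees of freedom in place of 8. Elovl6 changed by -2.40 (adjusted p = 0.61), close to its value without the block, whereas the changes of Srebf1, Acaca, Fasn and Acly were smaller than without it. The treated HESKOL livers were all on slide 3 and the untreated ones on slides 1 and 2. Slide and dexamethasone within this genotype can therefore be told apart only through the treated wild-type livers. Those were replicate 3 on slide 3 and replicates 1 and 2 on slide 2. Replicate 1 lay among the untreated livers on the first principal component. The part of a slide effect in the smaller changes was not tested.

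**Figure D3:**
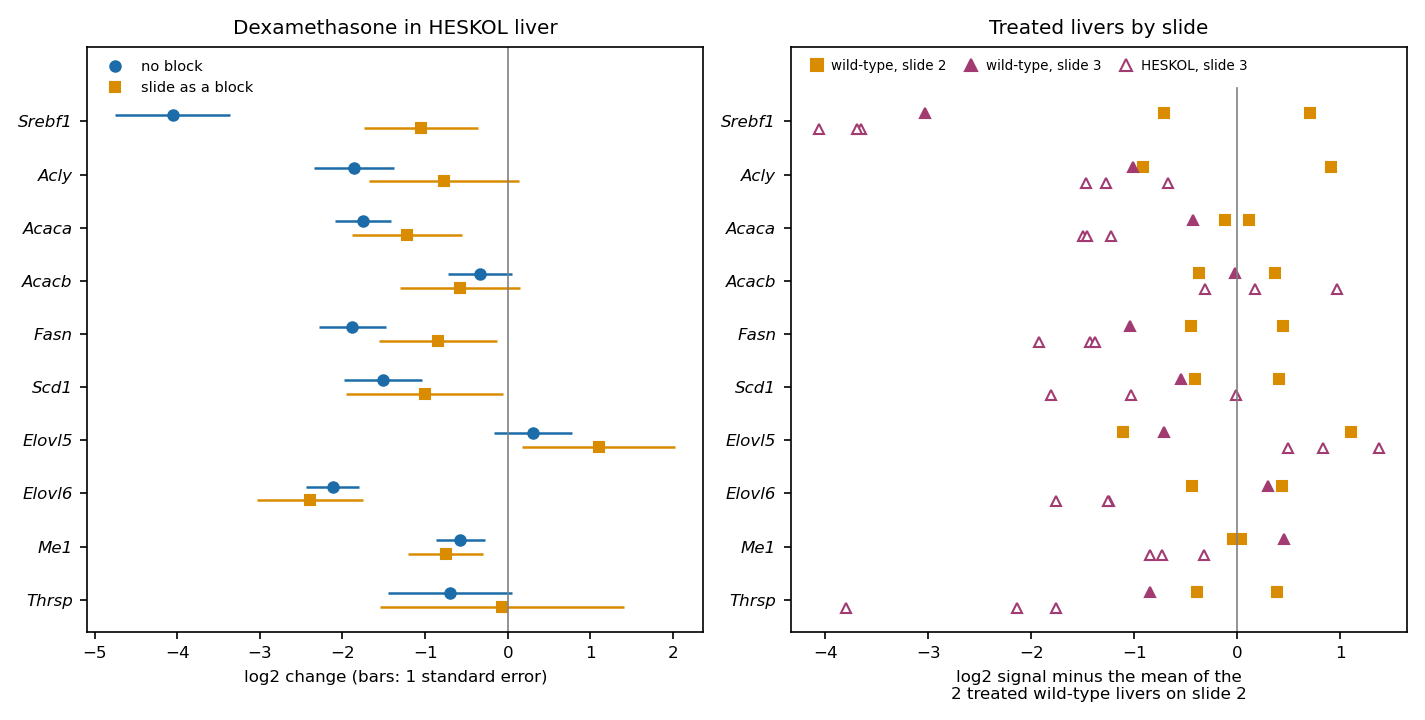
Left, log2 change by dexamethasone in HESKOL liver of the 10 lipogenesis genes without and with the slide as a fixed block (points, with lines of 1 standard error to each side). Right, log2 signal of each treated liver minus the mean of the 2 treated wild-type livers on slide 2, by slide and genotype; the treated wild-type liver on slide 3 differed from that mean by -3.03 for Srebf1 and by 0.30 for Elovl6.

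Markers of other cell types were read beside these results. The summed level of 10 adipocyte markers, in multiples of the 75th percentile of the array, was 4.74 to 5.90 in untreated and 11.6 to 21.1 in treated wild-type liver, and 5.89 to 8.08 in untreated and 14.0 to 35.9 in treated HESKOL liver. It was higher in every treated liver than in any untreated one, but Fabp4 alone made up 52.0 to 97.8% of it. Without Fabp4 the sum was 0.46 to 0.88 in untreated and 0.47 to 3.03 in treated wild-type liver, and 0.46 to 3.41 and 0.81 to 9.78 in HESKOL liver, so treated and untreated livers overlapped. Fabp4, Cfd, Cidea and Lipe were the 4 of the 10 that were tested, and Fabp4 and Cidea rose in HESKOL liver, by 1.91 and 2.41. Lipe had the opposite sign, at -0.92, -1.33 and -1.76 in untreated and -2.05, -1.82 and -1.92 in treated HESKOL liver, with no overlap and a change of -0.59 that did not pass (adjusted p = 0.25, limma). Of the defining markers, Lep and Ucp1 were above background on 0 arrays, Retn on 2, Adipoq and Adrb3 on 3 and Plin1 on 6. The summed level of 8 lymphocyte markers was 1.40 to 2.38 in untreated and 0.49 to 0.95 in treated HESKOL liver. That of 6 endothelial markers was 13.4 to 13.9 in untreated and 19.1 to 26.6 in treated HESKOL liver. The 6 endothelial markers did not share the rise of their sum. Limma called 1 of them higher and 1 lower by dexamethasone in HESKOL liver, with a median change of -0.07. Their median log2 level was lower in every treated than in any untreated HESKOL liver. Hepatocyte markers summed to 1523 to 2462 in untreated and 2273 to 2924 in treated HESKOL liver. The part of these shifts in the lipogenesis results was not tested.

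Other genes of the pathway were counted by lists of regulators, substrate supply, further elongases and desaturases, glycerolipid assembly and brakes on malonyl-CoA. The last list also holds Cpt1a, which malonyl-CoA inhibits. Limma called 0 of the 74 genes tested in the 5 lists by dexamethasone in wild-type liver and 0 between untreated genotypes, with 12 and 1 of them at an unadjusted p under 0.05, beside 2201 and 297 of all 18699 genes. The wild-type count depended on 1 array. Without treated wild-type replicate 1, Acsl3 (-1.47, adjusted p = 0.0069, limma) and Acss2 (-1.09, 0.017) were called lower in wild-type liver. Insig2 (2.08, 0.0092) and Lpin1 (2.91, 0.032) were called higher in that fit. The counts for HESKOL liver in each list stand beside the 4.2% lower and 3.64% higher over all genes. In HESKOL liver 3 of 20 regulators were lower and 1 higher with dexamethasone. The 3 were Mid1ip1, a small protein related to Thrsp that activates acetyl-CoA carboxylase, Insig1, which holds SREBP in the endoplasmic reticulum and is itself an SREBP target, and Mlxipl, the glucose-responsive factor ChREBP. Insig2, the other Insig protein, rose by 3.60. Mid1ip1 was at 4.69, 4.34 and 4.21 in untreated and 0.84, 0.70 and 0.80 in treated HESKOL liver, a change of -3.63 (adjusted p = 0.0025, limma). In treated wild-type liver it was at 3.97, 3.83 and 1.83, so replicate 3, on slide 3, was again the lowest. Insig1 changed by -2.47, with its second probe at -2.22, and Mlxipl by -1.20, with its second probe at -1.49. The median change over the 20 regulators was -0.06. Insig1 was called in 7 of the 12 fits that left out 1 array, Mlxipl in 9, and Mid1ip1 and Insig2 in all 12. Srebf2, Scap, Nr1h3 and the other regulators of the list did not pass.

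Among 15 genes of substrate and NADPH supply, 4 were lower in treated HESKOL liver and none was higher, with a median of -0.67. They were Aacs, acetoacetyl-CoA synthetase (-1.77, adjusted p = 0.020, limma), Pklr, pyruvate kinase of liver (-1.59, 0.037), Acss2, acetyl-CoA synthetase (-1.13, 0.027), and Tkt, transketolase of the pentose phosphate pathway (-0.91, 0.042). Aacs was at 5.19, 4.44 and 3.91 in untreated and 3.09, 2.97 and 2.16 in treated HESKOL liver, and Pklr at 1.64, 1.34 and 1.98 and at 0.05, 0.35 and -0.20, with no overlap for either. Their changes in wild-type liver were -0.98 for Aacs, -1.06 for Pklr, -0.79 for Acss2 and -0.53 for Tkt, none past the threshold. Tkt was called in 2 of the 12 fits that left out 1 array, Pklr in 5, Acss2 in 6 and Aacs in 8. The other tested probes of Acss2 and Tkt did not pass in a limma fit of every probe on its own. Those of Acss2 changed by -0.42 (adjusted p = 0.49, limma) and -1.26 (0.057) in HESKOL liver. That of Tkt changed by -0.80 (0.48) in HESKOL and -1.15 in wild-type liver.

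Of 15 further elongases, desaturases and enzymes of fatty acid activation and elongation, 2 were lower in treated HESKOL liver and none was higher: Acsl3, an acyl-CoA synthetase, by -2.25 and the elongase Elovl1 by -1.41, with a median of -0.35 over the list. In glycerolipid assembly 3 of 13 were higher and none was lower, with a median of 0.25. Lpin1, a phosphatidate phosphatase, was at 1.61, 1.5 and 3.90 in untreated and 6.92, 6.87 and 7.26 in treated HESKOL liver, a change of 4.69 (adjusted p = 0.0041, limma), and all 4 of its probes changed by 4.69 to 4.81. Lpin2 changed by 1.83 and Agpat3, an acyltransferase, by 1.12. The second Agpat3 probe changed by 0.63 and did not pass (adjusted p = 0.12, limma fit of every probe on its own). Of the 11 genes listed as brakes on acetyl-CoA carboxylase and malonyl-CoA, 2 were higher: Trib3, a pseudokinase, by 2.01, and Cpt1a by 0.93. Cpt1a admits long-chain fatty acids to the mitochondrion and is inhibited by malonyl-CoA, so it is not itself such a brake. The second Trib3 probe passed too, at 1.82 (adjusted p = 0.021, limma fit of every probe on its own), and that of Cpt1a did not, at 1.00 (0.17). The median over the list of brakes was -0.08. Trib3 was called in 4 of the 12 fits that left out 1 array, Cpt1a in 6, Agpat3 in 7, and Lpin2 and Acsl3 in 9; Lpin1 and Elovl1 were called in all 12.

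After dexamethasone 3 genes of the 5 lists differed between the genotypes: Mid1ip1 (-2.43, adjusted p = 0.042, limma) and Mlxipl (-1.32, adjusted p = 0.032) were lower in HESKOL liver, and Cpt1a was higher (1.31, adjusted p = 0.027), where 0.444% of all genes were called lower and 0.695% higher. With the slide as a fixed block none of the 3 was called: Mid1ip1 differed by -1.05 (adjusted p = 0.33), Mlxipl by -0.97 (0.34) and Cpt1a by 1.03 (0.31). Left-out arrays weighed on these calls unequally: Mid1ip1 was called in 1 of the 12 such fits, Mlxipl in 4 and Cpt1a in 8. In the limma fit of every probe on its own, the second Mlxipl probe passed, at -1.39 (adjusted p = 0.042). The second Cpt1a probe did not, at 1.23 (0.19). With the slide as a block none of the 15 genes named from the lists was called in the effect of dexamethasone in HESKOL liver; Lpin1 changed by 3.24, Insig2 by 2.33, Mid1ip1 by -1.43 and Mlxipl by -0.59 in that fit. Agpat3 and Lpin2 kept about their size, at 1.10 and 1.69, and Aacs, at -2.12, and Trib3, at 3.20, changed by more than without the block.

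**Figure D4:**
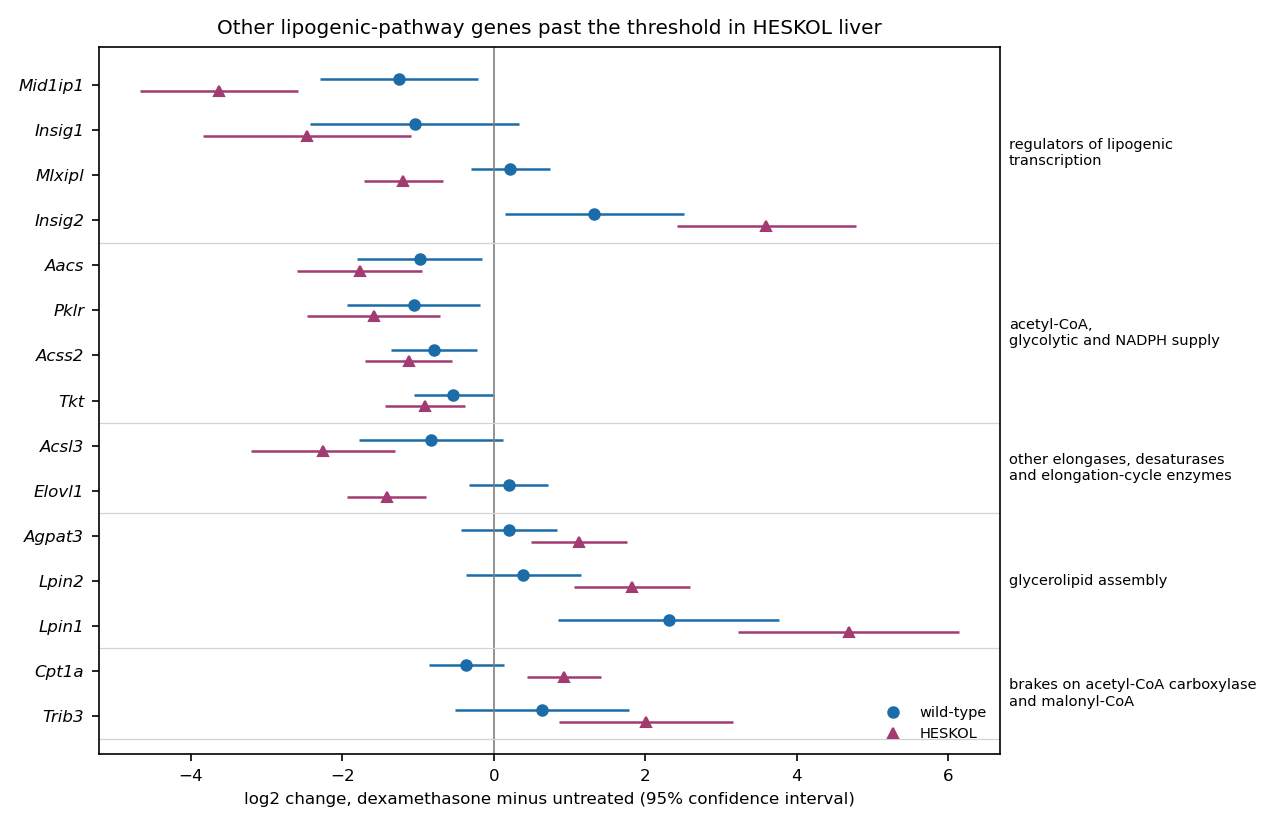
Log2 change by dexamethasone (x axis, points, with 95% confidence intervals as lines) in wild-type and HESKOL liver for the 15 genes of the 5 pathway lists that passed the threshold in HESKOL liver (y axis), grouped by list. Mlxipl changed by -1.20 in HESKOL and 0.22 in wild-type liver, and Lpin1 by 4.69 in HESKOL and 2.31 in wild-type liver, where it did not pass (adjusted p = 0.22).

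The genes whose levels followed those of Srebf1 most closely over the 12 arrays were found by the root mean square difference of values centred on each gene's mean. They were Tspan18 at 0.45, Mid1ip1 at 0.48, Aqp8 at 0.50, Lgr5 at 0.65 and Tnfaip8l3 at 0.68, where Srebf1 itself varied by 1.83 about its mean. Aqp8, a water channel, had group means of 4.72 and 4.81 in untreated wild-type and HESKOL liver, 2.86 in treated wild-type and -0.19 in treated HESKOL liver. For Fasn, which varied by 0.85, the nearest were Fancb at 0.25, Lyz2 at 0.28 and Endod1, Hacd4 and Cnp at 0.29. Hacd4 is a dehydratase of the fatty acid elongation cycle. Within the set of 10 the closest pair was Fasn and Acaca at 0.31, followed by Fasn and Acly at 0.40. The farthest was Srebf1 and Elovl5 at 2.09.

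Promoter sequence from RefSeq (GRCm38.p6, from 250 bases before to 50 after each annotated start) was in hand for 9 of the 10 genes, in 12 windows. The 150 bases before the start are shown for Srebf1, Fasn, Acly and Elovl6, which were lower together in treated HESKOL liver; capitals mark matches, on either strand, to the motifs searched.
Srebf1: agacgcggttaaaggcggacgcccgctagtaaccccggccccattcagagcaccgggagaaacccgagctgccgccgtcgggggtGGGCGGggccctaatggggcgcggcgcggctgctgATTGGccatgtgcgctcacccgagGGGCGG
Fasn: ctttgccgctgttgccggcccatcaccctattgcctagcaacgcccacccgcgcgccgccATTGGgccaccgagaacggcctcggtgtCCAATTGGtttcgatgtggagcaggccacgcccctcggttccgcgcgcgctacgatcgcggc
Acly: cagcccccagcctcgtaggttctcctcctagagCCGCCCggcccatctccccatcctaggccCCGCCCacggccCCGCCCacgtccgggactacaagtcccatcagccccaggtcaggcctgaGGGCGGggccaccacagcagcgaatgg
Elovl6: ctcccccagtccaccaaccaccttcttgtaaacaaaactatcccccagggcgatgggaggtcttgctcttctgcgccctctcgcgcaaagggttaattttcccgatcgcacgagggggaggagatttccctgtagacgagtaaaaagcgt
These stretches lie at chr11:60210472-60210621 (1 of 3 annotated Srebf1 starts), chr11:120824548-120824697 and chr11:100528001-100528150, all on the minus strand, and chr3:129532236-129532385 on the plus strand.

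The motifs were CCAAT, bound by NF-Y, GGGCGG, the GC box bound by Sp1, TCACNCCAC, a sterol regulatory element bound by SREBP, CACGTG, an E-box of USF and ChREBP, and AGAACA, a half-site of the glucocorticoid receptor. None of these letter strings contains another. CCAAT was in 8 of the 12 windows, those of 7 of the 9 genes, beside 37.4% of all 32851 windows of the table. GGGCGG was in 4 of the 12 windows, those of 3 of the 9 genes, beside 35.7%. Srebf1 held a CCAAT match on the opposite strand at -30 to -26 and GC boxes at -65 to -60 and -6 to -1, counted from the start. Fasn held CCAAT matches at -90 to -86, -62 to -58 and -59 to -55, the last pair overlapping on opposite strands. Acly held 4 GC boxes between -117 and -22, and Elovl6 held none of the motifs in its window. TCACNCCAC, in 1.24% of all windows, was in 0 of the 9 genes, CACGTG, in 7.15%, was in Elovl5 alone, and AGAACA, in 19.0%, in Acaca alone. A match is only a run of letters, and its absence says only that these letters are not in the window.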

How the data were processed

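Total RNA of 12 mouse livers was measured on one-colour arrays. The deposited files hold intensity values on a linear scale, background-corrected by the authors. Per the file headers the software was Agilent Feature Extraction 9.5.3.1 (9.5 in the submitters' processing notes), on a design drawn on mm7. The deposited series table held the same intensity values (ratio 1). Levels were computed here as log2 of the processed signal minus the array's 75th percentile over non-control spots. The probe with the highest mean stood for its gene. The test took the 18699 of 27768 genes that were well above background in every mouse of some group. One mean per group was estimated in limma 3.58.1 (R 4.3.3) from the 12 arrays together, leaving 8 residual degrees of freedom beside 3.13 prior ones. Benjamini-Hochberg adjustment ran over all genes tested, and an adjusted p under 0.05 was called. The fit was tested on simulated data.

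The 10 genes, the pathway and marker lists and the motifs were chosen with earlier results of these data known. The text names the 10 genes, Hes1, up to 4 called genes of each pathway list and comparison by adjusted p, and the 5 genes nearest to Srebf1 and to Fasn. One gene of the supply list is not reported here, and the counts of that list leave it out. Alternatives were the deposited table, other scalings, normexp, no filter, other uses of probes, slide or replicate number as a block, only the groups compared, a trend with robust estimation, and each array left out. The number of arrays limits the precision. The replicate numbers were not taken as pairs: correlations of deviations between same-numbered mice ran from -0.35 to 0.62.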

Additional observations from a re-analysis of the deposited data

How the results depend on the processing

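Of the 5 genes called lower by dexamethasone in HESKOL liver, Srebf1 and Elovl6 passed in all 12 fits that left out 1 array, and 2 to 5 genes passed over those fits. In the other comparisons such fits called 0 to 2 genes for HESKOL against wild-type after dexamethasone and 0 to 1 for dexamethasone in wild-type liver; in the difference between the dexamethasone effects and between untreated genotypes they called 0. With the slide as a fixed block the count in treated HESKOL liver was 0, the median of the 10 genes -0.81, and the median difference between the effects -0.77. The single call after dexamethasone, Elovl6, gave way to a count of 0 with quantile normalization, median scaling, normexp, the deposited table, no filter, every probe on its own, only the groups compared, the slide as a fixed block and the replicate number as a block. The replicate block, in which Elovl6 differed by -1.52 with an adjusted p of 0.077 (limma), raised Scd1 in treated HESKOL liver past the threshold, at -1.51 (0.028), as the slide as a random block did, at -1.55 (0.041). Acly in treated HESKOL liver missed the threshold with no filter (adjusted p = 0.063) and in the deposited table (0.083). Over all genes tested, the median for treated against untreated HESKOL liver shifted by 0.10 with median scaling, -0.08 in the deposited table and 0.04 with normexp, and the medians of the 5 comparisons by -0.33 to 0.24. The causes were not tested.

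Changes of sign were seen only for values that passed no test. Between untreated genotypes, Srebf1 gave -0.052 in the deposited table, -0.058 with median scaling, -0.017 with quantile normalization and -0.023 with the slide block; Me1 gave 0.015 over all probes, 0.026 with normexp and 0.54 with the slide block; Acacb gave -0.28 with the slide block. For dexamethasone in wild-type liver, the deposited table gave -0.32 for Elovl5, -0.13 for Me1 and -0.10 for Scd1; Elovl5 also gave -0.17 with normexp, -0.12 with quantile normalization and -0.0037 with the random slide block, and Acaca gave 0.14 with the slide block. The difference between the effects of Acacb was -0.031 with the random slide block. With 1 array left out, untreated genotype differences ran from -0.21 to 0.52 for Acaca, -0.092 to 0.43 for Acly, -0.0013 to 0.66 for Fasn, -0.30 to 0.25 for Me1 and -0.13 to 0.17 for Srebf1. Changes by dexamethasone in wild-type liver ran from -0.71 to 0.026 for Acaca, -0.67 to 0.44 for Elovl5, -0.45 to 0.071 for Elovl6, -0.80 to 0.0069 for Fasn and -0.20 to 0.55 for Scd1, and in HESKOL liver from -1.42 to 0.24 for Thrsp. Acacb ran from -0.065 to 0.58 between treated genotypes, and in the difference between the effects Acacb ran from -0.31 to 0.34 and Elovl5 from -0.13 to 0.98.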

Other observations

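Read mouse by mouse, the 10 genes did not separate the livers by treatment alone. In untreated HESKOL replicate 3 none of the 10 genes lay below its own mean over the 12 arrays, whereas in untreated wild-type replicate 3 there were 8, as many as in treated HESKOL replicates 1 and 3. The sizes differed: the median deviation of the 10 genes from their means was only -0.09 in untreated wild-type replicate 3. It was 0.74 in treated wild-type replicate 1, 0.08 in replicate 2 and -0.32 in replicate 3, and -0.62, -0.88 and -1.47 in the 3 treated HESKOL livers.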
